A study of Mus musculus with 2 samples.

Results

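The γδ T cells described here were 167 single cells from the stromal vascular fraction of mouse epididymal white fat, 51 from a knockout library (KO) and 116 from a wild-type library (WT), out of 21117 cell barcodes that passed a quality filter. That filter asked for 1500 or more unique molecular identifiers (UMIs, each counting 1 captured mRNA molecule) in a barcode, 500 or more detected genes and a mitochondrial share of no more than 15%. γδ T cells were then selected by their own transcripts. The rule asked for at least 2 UMIs of the CD3 genes Cd3d, Cd3e and Cd3g together and at least 2 UMIs of Trdc, the constant region of the T-cell receptor δ chain. It also asked for no Cd8b1, Cd4 or Foxp3 UMI, under 10 UMIs per 10000 of the macrophage genes C1qa, C1qb and C1qc, and under 30 per 10000 of the matrix genes Col1a1, Col3a1 and Dcn. These genes chose the cells, so their levels below describe the choice and are not results.

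The KO library came from mice with a myeloid conditional knockout of Camk2d, a subunit gene of the calcium-dependent kinase CaMKII, and the WT library from wild-type mice. Both were fed a high-fat diet for 10 weeks, and both libraries are labelled as a single batch. The stromal vascular fraction is what collagenase digestion of fat leaves once the fat-laden adipocytes are removed: progenitors, vessel cells and immune cells. A free-text label of both samples names embryonic hindlimb, whereas tissue, source and cell type name epididymal fat. The Cre driver, the age of the mice and the number of mice behind each library are not given in the sources used here. A deletion confined to myeloid cells does not target the gene in T cells themselves. With 1 library per genotype there is no replicate and no test: genotype, animal, preparation and sequencing depth cannot be told apart, and every interval below is a 95% interval for counting error only.

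T cells carry an αβ or a γδ receptor. γδ T cells are found in barrier tissues and in fat, and many take up an effector program early. Type-1 γδ cells express T-bet (Tbx21), CD27 and natural killer (NK) receptors and release interferon γ. γδ cells whose receptor pairs Vγ6 with a δ chain built from Trdv4 are laid down early in life and settle in skin, lung, gingiva and fat. In fat, γδ T cells are known for signals to stromal cells that sustain interleukin 33 and regulatory T cells, and for a part in thermogenesis.

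The variable segments that separate these cells are shown because the receptor results turn on them. Each line holds the last 150 bases of the segment's germline exon (GRCm38), 5′ to 3′ on the coding strand. Capitals run from the codon of the conserved cysteine to the germline end, the stretch that is trimmed and joined when the receptor gene rearranges. Trdv4 lies at chr14:54075366-54075515 on the plus strand, Tcrg-V6 at chr13:19190780-19190929 plus, Trgv2 at chr13:19336573-19336722 minus and Tcrg-V1 at chr13:19340305-19340454 plus.
Trdv4: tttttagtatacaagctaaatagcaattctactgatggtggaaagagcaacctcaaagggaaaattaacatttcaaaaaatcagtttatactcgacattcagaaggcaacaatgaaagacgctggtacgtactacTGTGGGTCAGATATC
Tcrg-V6: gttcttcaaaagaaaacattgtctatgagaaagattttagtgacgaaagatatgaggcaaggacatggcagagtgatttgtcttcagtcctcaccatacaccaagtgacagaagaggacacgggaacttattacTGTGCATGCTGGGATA
Trgv2: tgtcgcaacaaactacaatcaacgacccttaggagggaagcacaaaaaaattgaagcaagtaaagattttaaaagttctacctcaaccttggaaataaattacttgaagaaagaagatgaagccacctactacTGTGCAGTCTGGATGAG
Tcrg-V1: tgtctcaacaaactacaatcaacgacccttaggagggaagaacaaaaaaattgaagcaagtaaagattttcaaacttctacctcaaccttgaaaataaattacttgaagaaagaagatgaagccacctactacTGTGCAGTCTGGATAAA
Trgv2 and Tcrg-V1 were identical at 143 of these 150 bases (95.3%), so reads of these 2 genes could be split between them and their separate counts are uncertain. The other pairs shared between 24.7% and 32.0% of positions.

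The KO cells held 340790 UMIs in all (median 6354 per cell, range 2345 to 22659) and the WT cells 477571 (median 3991, range 1564 to 14950). Over all barcodes that passed the filter the medians were 9652 in KO and 3799 in WT, so the KO library was the deeper one throughout. Levels are given in CPM, the UMIs of a gene scaled to a fixed total over the summed cells of a group, and a count of 0 in all cells allows up to 8.80 CPM in KO and 6.28 CPM in WT. The 2 libraries shared 48 barcode sequences, none of them among the γδ T cells, and 0 of the 167 cells reached the doublet score used here.

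The label was checked against receptor genes outside the rule, since Trdc (1156 CPM in KO, 1139 CPM in WT) chose the cells. Tcrg-C1, a γ-chain constant region that the rule did not use, had a UMI in 41 of 51 KO cells and 75 of 116 WT cells, against 5 of 349 KO and 0 of 254 WT CD8 T cells (at median depths of 6032 and 4512.5 UMIs) and no B cell. The CD8 gate, like the CD4 helper gate used below, barred Trdc UMIs, so cells read as γδ were kept out of it beforehand. Trac, the α-chain constant region, was detected in 17 KO and 12 WT cells, at 96.8 CPM in KO and 29.3 CPM in WT, against 284 CPM in KO and 212 CPM in WT CD8 T cells. Its log2 KO-over-WT ratio of 1.72 (0.78 to 2.74) was the largest of the αβ receptor genes. Trbc1 or Trbc2, β-chain constant regions, had UMIs in 46 KO and 97 WT cells. Their 3′ reads do not show whether a gene was rearranged, and Trbc1 was also read in NK cells, which make no T-cell receptor, at 376 CPM in KO and 279 CPM in WT.

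Shares of cells with Tcrg-C1 were lower near the limit of the rule, while those with Trac ran in opposite directions in the 2 libraries. With 1 Trdc UMI, just outside, there were 8 KO and 34 WT cells, of which 1 KO and 6 WT cells had Tcrg-C1 and 1 KO and 16 WT cells had Trac. With 2 UMIs, just inside, there were 4 KO and 25 WT cells, of which 0 KO and 11 WT cells had Tcrg-C1 and 1 KO and 5 WT cells had Trac. With 3 or more, 41 of 47 KO and 64 of 91 WT cells had Tcrg-C1, and 16 KO (34.0%) and 7 WT (7.69%) cells had Trac. At least 1 Trdc UMI was seen in 1 of 354 KO and 2 of 518 WT B cells. Their median depths were 5666.5 and 5689.5 UMIs. Progenitors had it in 4 of 3380 KO (0.118%) and 20 of 2299 WT (0.870%) cells, at median depths of 10459 and 6818 UMIs. The progenitor share was thus higher in the shallower WT library. NK cells had it in 15 of 158 KO (9.49%) and 15 of 155 WT (9.68%) cells, so the NK share was above that in cells that should lack the transcript.

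The γδ T cells made up 0.635% (0.473 to 0.834) of filtered KO barcodes and 0.887% (0.733 to 1.06) of WT barcodes, a log2 ratio of -0.48 (-0.95 to -0.01). Among CD3-positive barcodes their share was 3.89% in KO (51 of 1310, 2.91 to 5.09) and 9.63% in WT (116 of 1205, 8.02 to 11.4). The CD3-positive denominators were near in size, but their make-up was not: the CD4 helper gate held 322 KO and 43 WT cells and the CD8 gate 349 KO and 254 WT cells. The lower KO share therefore stood beside more CD4 and CD8 T cells in KO as well as fewer γδ cells, and the limits on C1q and collagen UMIs kept 51 of 58 KO and 116 of 150 WT candidates. With no C1q and no collagen UMI allowed at all, 10 KO and 2 WT cells were left, and the log2 ratio turned to 3.03 of filtered and 2.20 of CD3-positive barcodes. With at least 3000 UMIs asked of every barcode the ratio of the shares of filtered barcodes was -1.02.

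A minority of the cells carried type-1 markers that the rule had not used. A cell was put on the type-1 side with at least 2 UMIs from Tbx21, Eomes, Cd27, Klrd1, Nkg7, Ly6c2 and Xcl1, and more than from a second marker set that is not reported here. The type-1 side held 14 of 51 KO cells (27.5%, 15.9 to 41.7) and 12 of 116 WT cells (10.3%, 5.46 to 17.4). Below it is set against all other γδ cells, 37 in KO and 104 in WT, at median depths of 6324.5 UMIs in KO and 4472.5 in WT on the type-1 side and 6479 in KO and 3944 in WT among the others. Most of the WT type-1 cells, and a minority of the KO ones, held 2 Trdc UMIs, the least the rule allowed. Tcrg-C1 was read in 6 of 14 KO and 4 of 12 WT type-1 cells. Among the others it was read in 35 of 37 KO and 71 of 104 WT cells. By Tcrg-C1, and in WT also by Trdc, the γδ label of the type-1 cells is thus less well backed. The γ-chain constant regions Tcrg-C2 and Tcrg-C4 did not show this in KO. There, Tcrg-C2 was read in 9 of 14 type-1 and 12 of 37 other cells, and Tcrg-C4 in 7 and 13. In WT, Tcrg-C2 was read in 2 of 12 type-1 and 27 of 104 other cells, a lower share. Tcrg-C4 was read in 3 and 23 of these WT cells, at near shares.

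The type-1 share was higher in KO by 1.41 (0.40 to 2.41) on the log2 scale. Set against CD3-positive barcodes, the type-1 cells made up 1.07% (0.586 to 1.79) in KO and 0.996% (0.516 to 1.73) in WT, and on that denominator the intervals of both libraries overlapped almost wholly. Of filtered barcodes they made up 0.174% (0.0953 to 0.292) in KO and 0.0917% (0.0474 to 0.160) in WT, with intervals that also overlapped. The difference also depended on the Trdc limit: admitting cells with 1 Trdc UMI brought the log2 ratio of the type-1 shares to 0.47. With at least 3 Trdc UMIs asked for, which left 47 KO and 91 WT cells, the ratio of these shares was larger.

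Trdv4 was not found on the type-1 side. It was read in 0 of 14 KO and 0 of 12 WT type-1 cells, which allows a share of up to 21.4% in KO and 25% in WT. Among the other γδ cells it had a UMI in 30 of 37 in KO (81.1%, 64.8 to 92.0) and 78 of 104 in WT (75.0%, 65.6 to 83.0), at 877 CPM in KO and 599 CPM in WT. With every cell thinned to 1500 UMIs, 28 KO and 61 WT cells of those others still had Trdv4. No gene of the side rule is a receptor segment, so this is a separate measure of the same cells. Trdv4 was nearly absent from CD4 and CD8 T cells (0 of 322 and 2 of 349 in KO, 0 of 43 and 1 of 254 in WT), whose gates barred Trdc UMIs. Trdv4 was read in 38 of 158 KO (24.1%) and 20 of 155 WT (12.9%) NK cells, at 41.8 CPM in KO and 33.9 CPM in WT, so its detection alone does not mark a γδ cell.

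The γ segment of the Vγ6 pairing followed, at lower counts. Reads of a segment do not show that it was rearranged, or that both chains paired in a cell. Tcrg-V6 was read in 1 KO and 0 WT type-1 cells and in 16 KO and 27 WT of the other cells. Of the cells with Tcrg-V6, 16 of 17 in KO and 25 of 27 in WT also had Trdv4. Outside the γδ cells Tcrg-V6 had 1 UMI among WT CD8 T cells and none in the CD4, NK and B gates. Over all γδ cells its level was 55.8 CPM (33.6 to 87.1) in KO and 83.8 CPM (59.8 to 114) in WT.

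Among the other γ segments, Tcrg-V1 was read in 6 of 14 KO type-1 cells (10 UMIs) and 0 of 12 WT type-1 cells, and elsewhere in 1 WT cell. Its near-identical neighbour Trgv2 was read in 5 KO and 1 WT type-1 cells and in 11 KO and 41 WT of the others; over all cells it stood at 82.2 CPM in KO and 136 CPM in WT. Given their shared sequence, the sum of both is safer to read than either count, though reads that fit both genes may be missing from it. Either was read in 8 of 14 KO (57.1%, 28.9 to 82.3) and 1 of 12 WT (8.33%, 0.211 to 38.5) type-1 cells, and in 11 of 37 KO (29.7%, 15.9 to 47.0) and 42 of 104 WT (40.4%, 30.9 to 50.5) of the others. The sum was thus higher on the type-1 side in KO and lower there in WT, and over all γδ cells it was read in 19 of 51 KO and 43 of 116 WT cells. Tcrg-V4, another γ segment, had 0 KO and 3 WT UMIs, and Tcrg-V5, of the skin lineage, had 1 KO and 0 WT UMIs. Trdv5 had 4 UMIs in KO and 1 in WT. Of the 17 receptor genes looked for, 7 had no UMI in KO and 7 had none in WT.

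Among the constant regions, Tcrg-C1 stood lower on the type-1 side, at 90.02 CPM in KO and 109 CPM in WT against 496 CPM in KO and 329 CPM in WT in the other cells. Tcrg-C2 was read in 9 KO and 2 WT type-1 cells and in 12 KO and 27 WT of the others. Tcrg-C4 was read in 7 KO and 3 WT type-1 cells and in 13 KO and 23 WT of the others. Over all γδ cells the KO-over-WT log2 ratios were 0.36 (0.01 to 0.71) for Tcrg-C1, 0.53 (-0.17 to 1.22) for Tcrg-C2 and 0.39 (-0.41 to 1.18) for Tcrg-C4.

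**Figure D1:**
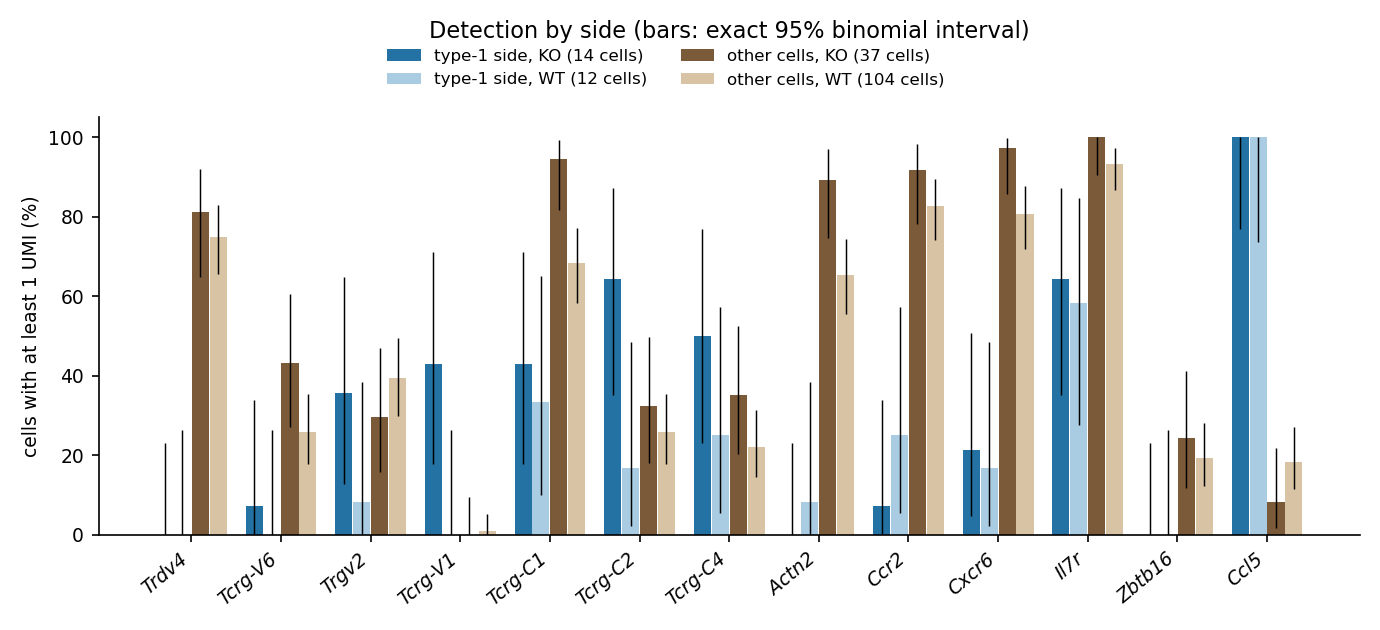
Share of cells with at least 1 UMI (y axis, %) for receptor segments and effector genes (x axis), on the type-1 side in KO and WT and in the other γδ T cells in KO and WT; black lines are exact 95% binomial intervals. Trdv4 bars are absent on the type-1 side and reach 81.1% in KO and 75.0% in WT among the others, while Ccl5 was detected in every type-1 cell of both libraries.

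Several genes that had not placed cells on the type-1 side stood lower there in both libraries. They were picked after their values were seen. Maf, a transcription factor of effector T cells, stood at 45.01 CPM in KO and 200.3 CPM in WT type-1 cells, against 544 CPM in KO and 563 CPM in WT in the others. Rora, a nuclear receptor gene, stood at 124 CPM in KO and 54.6 CPM in WT type-1 cells against 667 CPM in KO and 504 CPM in WT. The receptors of tissue entry and stay followed the same order. Ccr2, a chemokine receptor, stood at 67.5 CPM in KO and 109 CPM in WT type-1 cells against 667 CPM in KO and 582 CPM in WT, and Cxcr6, which holds lymphocytes in tissue, at 45.01 CPM in KO and 36.4 CPM in WT against 754 CPM in KO and 551 CPM in WT. The survival receptor Il7r and the costimulator Icos were also lower on the type-1 side in both libraries. For sparser genes the counts did not show a difference in both libraries. Zbtb16, which encodes PLZF, the regulator of innate-like lymphocytes, was read in 0 of 14 KO and 0 of 12 WT type-1 cells, which allows up to 21.4% in KO and 25% in WT, and in 24.3% of KO and 19.2% of WT cells among the others. Pdcd1, which encodes the checkpoint receptor PD-1, was read in 0 KO and 3 of 12 WT type-1 cells and in 17 of 37 KO and 31 of 104 WT of the others, and so at near shares in WT.

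Other genes, also picked after their values were seen, stood higher on the type-1 side. Ccl5, a chemokine of cytotoxic lymphocytes, stood at 6786 CPM in KO and 5209 CPM in WT type-1 cells against 11.9 CPM in KO and 89.9 CPM in WT in the others; CD8 T cells had 11470 CPM in KO and 8103 CPM in WT, and NK cells 8718 CPM in KO and 5161 CPM in WT. Lef1, a transcription factor of the TCF family, was read in 7 KO and 3 WT type-1 cells and in 3 KO and 5 WT of the others. Satb1, a chromatin organizer, stood at 495 CPM in KO and 182 CPM in WT type-1 cells against 59.5 CPM in KO and 66.2 CPM in WT. Ifng, the gene of interferon γ, was read in 4 KO and 2 WT type-1 cells and in 0 KO and 1 WT of the others. Txk, a kinase below the T-cell receptor, stood at 574 CPM in KO and 255 CPM in WT type-1 cells against 43.7 CPM in KO and 56.8 CPM in WT.

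Set beside CD4 helper T, CD8 T and NK cells of the same libraries, 59 of 2218 genes (2.66%) were at least 2-fold over each of the 3 in both libraries. Of the γδ receptor list 6 of 6 genes at the level floor were among them, beside 4 of 10 cytokine receptors and 0 of 8 type-1 genes. The CD4 and CD8 gates barred Trdc UMIs, so the count for the γδ receptor list is partly set by the gates. Cd163l1, a scavenger receptor gene of the CD163 family known from γδ T cells, stood at 537 CPM in KO and 593 CPM in WT γδ cells and had 1 UMI each in KO CD4, KO CD8 and WT CD8 T cells and none in NK cells. Blk stood at 158 CPM in KO and 191 CPM in WT. Actn2, an α-actinin best known from muscle, stood at 255 CPM in KO and 266 CPM in WT, and Kcnk1, a potassium channel gene, at 103 CPM in KO and 119 CPM in WT. None of these exceeded 12 CPM in the other 3 cell types of either library.

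Further down the ranking came genes with a clear background elsewhere. Tmem176a and Tmem176b, paired membrane proteins, stood at 1171 and 1092 CPM in KO and at 1110 and 1047 CPM in WT γδ cells, which was 25.1-fold and 18.8-fold over the highest other cell type in KO and 13.6-fold and 9.13-fold in WT. Ramp1, a subunit of the receptor for the neuropeptide CGRP, stood at 516 CPM in KO and 584 CPM in WT γδ cells, 9.53-fold over NK cells in KO and 6.79-fold in WT. Igf1r, the receptor for insulin-like growth factor 1, stood at 185 CPM in KO and 186 CPM in WT, and Ltb4r1, the receptor for leukotriene B4, at 153 CPM in KO and 163 CPM in WT. Serpinb1a, an inhibitor of neutrophil-type proteases, stood at 252 CPM in KO and 243 CPM in WT, and F2r, the thrombin receptor, at 182 CPM in KO and 218 CPM in WT. Pxdc1 (126 CPM in KO, 155 CPM in WT) and Avpi1 (223 CPM in KO, 199 CPM in WT) complete the 15 named genes. None of the 15 differed 1.5-fold between the libraries.

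**Figure D2:**
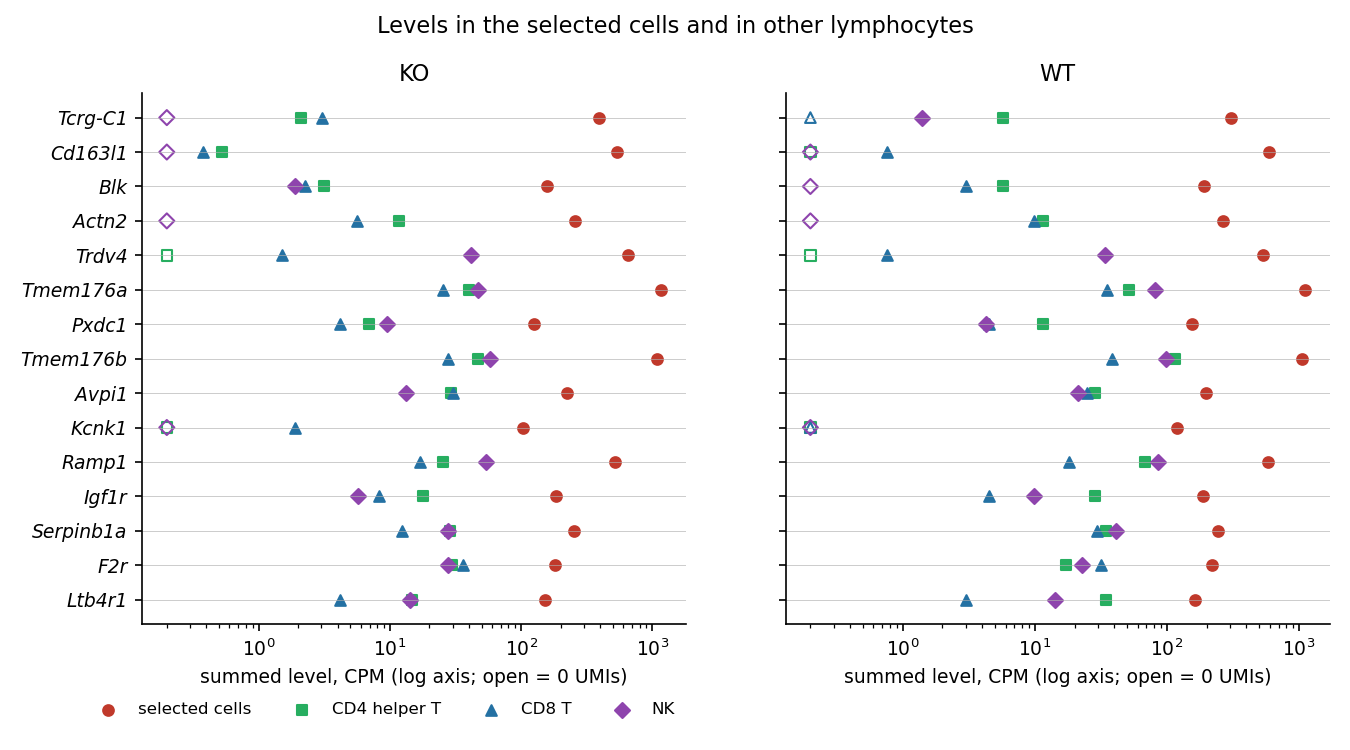
Summed level (x axis, CPM, log scale) of the 15 genes that stood highest in γδ T cells over other lymphocytes, in KO on the left and WT on the right; red circles are γδ T cells, green squares CD4 helper T cells, blue triangles CD8 T cells, purple diamonds NK cells, and open symbols at the left edge mark 0 UMIs. Red circles stand apart in every line and at like levels in both libraries, for instance Cd163l1 at 537 CPM in KO and 593 CPM in WT.

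Some cytokine receptors also stood higher in the γδ cells than in the CD4, CD8 and NK gates. The CD4 gate barred Foxp3 UMIs, and neither regulatory T cells nor type 2 innate lymphoid cells were compared. Il23r, the gate for interleukin 23, stood at 106 CPM in KO and 75.4 CPM in WT, Il17re, a receptor subunit for interleukin 17C, at 79.2 CPM in KO and 60.7 CPM in WT, Il2ra, the α subunit for interleukin 2, at 194 CPM in KO and 172 CPM in WT, and Il18r1 at 317 CPM in KO and 335 CPM in WT. All 4 were at least 2-fold over CD4, CD8 and NK cells in both libraries. Il17a itself was sparse: 12 UMIs in 6 KO cells and 24 UMIs in 9 WT cells (35.2 CPM in KO, 50.3 CPM in WT; log2 -0.51, -1.65 to 0.54). It encodes interleukin 17A. In the comparison gates it was read in 1 of 322 KO and 1 of 43 WT CD4 cells, in 0 KO and 0 WT CD8 T cells and in 0 KO and 1 WT NK cells. Il17f had 16 UMIs in KO and 1 in WT, and all 16 came from 1 cell. Il22, Il4, Il5 and Il13 had no UMI in either library.

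Between the libraries, 2083 genes averaged 50 CPM or more over the pair with 30 or more UMIs in the library where they were higher, and a gene was called with a ratio of 2-fold or more. Of these, 66 were higher in KO (3.17%) and 93 lower (4.46%), with a median log2 ratio of 0.03. For the gene lists the floor was 20 CPM in the higher library and the call 1.5-fold; at those settings 1195 of 6230 genes were higher (19.2%) and 1223 lower (19.6%). About 2 in 5 genes thus pass the list call by these counts alone, and list counts are to be read against that.

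Blk, a Src-family kinase gene, stood at 158 CPM in KO and 191 CPM in WT, Maf at 414 CPM in KO and 521 CPM in WT (log2 -0.33, -0.64 to -0.03), and S100a4, a calcium-binding protein of motile cells, at 3017 CPM in KO and 3361 CPM in WT (log2 -0.16, -0.27 to -0.04). These 3 were within the 1.5-fold call. Zbtb16 (11 KO and 24 WT UMIs; log2 -0.64, -1.82 to 0.45) and Il1r1 (16 KO and 34 WT UMIs; log2 -0.60, -1.56 to 0.30) were past the lower call, with intervals that include 0.

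Type-1 program genes were higher in KO over all γδ cells: 22 of 25 at the floor were higher, 0 lower, with a median log2 ratio of 1.65. Klrd1, which encodes the NK receptor subunit CD94, stood at 141 CPM in KO and 18.8 CPM in WT (log2 2.90, 1.86 to 4.12), Ly6c2 at 446 CPM in KO and 101 CPM in WT (log2 2.15) and Ccl5 at 1778 CPM in KO and 678 CPM in WT (log2 1.39, 1.19 to 1.59). Klra7, a Ly49 receptor gene, had 13 UMIs in KO and 1 in WT (log2 4.19, 1.45 to 9.60). These genes include those that place a cell on the type-1 side, which held 27.5% of KO and 10.3% of WT cells. With cells of 1 Trdc UMI admitted, the Ccl5 ratio was 0.13 and that of Klrd1 1.58.

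Hopx, a cofactor found in effector lymphocytes, was read in 23 KO and 9 WT γδ cells (log2 2.56, 1.54 to 3.72). It was read in 11 KO and 3 WT type-1 cells and in 12 KO and 6 WT of the others. Klrk1, which encodes the activating receptor NKG2D, stood at 200 CPM in KO and 81.7 CPM in WT over all γδ cells (log2 1.29), and was read in 12 KO and 6 WT type-1 cells and in 21 KO and 16 WT of the others. For Hopx the log2 ratios were 0.78 in CD4, 0.55 in CD8 and 0.63 in NK cells. For Klrk1 the ratio was 0.06 in CD8 T cells. NK cells had Klrk1 at 726 CPM in KO and 495 CPM in WT, and CD4 cells at 31.2 CPM in KO and 57.3 CPM in WT.

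Other T-cell lists had shares of higher genes nearer the 19.2% over all genes. Of the T-cell receptor signalling list, 5 of 19 were higher and 0 lower (median 0.34): Cd2, an adhesion receptor, at 117 CPM in KO and 48.2 CPM in WT (log2 1.28, 0.51 to 2.09), Txk at 182 CPM in KO and 79.6 CPM in WT, Ptpn22, a phosphatase that restrains the receptor, at 261 CPM in KO and 138 CPM in WT, Fcer1g, an adaptor chain, at 246 CPM in KO and 132 CPM in WT, and Lck at 44.0 CPM in KO and 29.3 CPM in WT. Type-1 cells held 51 of the Txk and 62 of the Fcer1g UMIs in KO and 14 and 17 in WT. Of the homing list 6 of 23 were higher and 0 lower. Of the innate-like regulators 5 of 16 were higher and 4 lower, Id3, an inhibitor of E proteins, being farthest apart (4 UMIs in KO, 20 in WT; log2 -1.83), and of the costimulation list 2 of 10 were higher and 0 lower, with Icos at 361 CPM in KO and 310 CPM in WT and Cd160 at 8 KO and 2 WT UMIs.

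Klf2, a factor that keeps lymphocytes circulating, stood at 296 CPM in KO and 389 CPM in WT (log2 -0.39, -0.76 to -0.04), under the call, and was read in 28 of 51 KO and 87 of 116 WT cells. On the type-1 side it stood at 709 CPM in KO and 638 CPM in WT, and in CD8 T cells the log2 ratio was 0.04.

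Among genes for secreted proteins, 11 of 16 at the floor were higher in KO and 2 lower (median 0.90), against 19.2% higher and 19.6% lower over all genes. The list shares Ccl5, Ifng and Xcl1 with the type-1 program list, so its count is not separate from the type-1 result. Its largest ratio was that of Il17f, whose KO UMIs all came from 1 cell. Areg, which encodes the repair factor amphiregulin, had 15 UMIs in 8 KO cells and 1 UMI in 1 WT cell (44.0 CPM in KO, 2.09 CPM in WT; log2 4.39, 1.69 to 9.79), none of them on the type-1 side. Thinned to 1500 UMIs, 1 KO and 0 WT cells kept it, near the level of 1 UMI. Areg is also a gene of type 2 innate lymphoid cells. Their marker list, which includes Areg, summed to 138 CPM in KO and 111 CPM in WT γδ cells, with Il5 and Il13 at 0. Areg itself made up 44.0 CPM of this sum in KO and 2.09 CPM in WT, so the higher KO sum rests on Areg. Tnf stood at 17.6 CPM in KO (5 cells) and 58.6 CPM in WT (26 cells), a log2 ratio of -1.74 (-3.30 to -0.44), and Lta had 3 KO and 13 WT UMIs. Tgfb1 stood at 182 CPM in KO and 113 CPM in WT (log2 0.69, 0.14 to 1.24), and Ltb, for lymphotoxin β, at 423 CPM in KO and 488 CPM in WT. Tnfsf11, encoding RANK ligand, stood at 158 CPM in KO and 85.9 CPM in WT, but 21 of its 54 KO UMIs came from 1 cell, as did 30 of 35 for Ccl4.

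Of the cytokine receptor list 7 of 21 were higher and 6 lower (median 0.26). Il2rg, the common γ chain shared by the receptors for interleukins 2, 7 and 15, stood at 326 CPM in KO and 153 CPM in WT (log2 1.09, 0.65 to 1.54). In the other lymphocytes its log2 ratios were also positive: 0.38 in CD4, 0.54 in CD8 and 0.64 in NK cells. Il21r had 16 KO and 3 WT UMIs (log2 2.90, 1.10 to 5.32). Il10ra had 1 KO and 12 WT UMIs and Il6st 3 KO and 21 WT UMIs. Ifngr1, a receptor subunit for interferon γ, stood at 1262 CPM in KO and 946 CPM in WT (log2 0.41, 0.22 to 0.61).

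Immediate-early genes split. Of the 28 at the floor 11 were lower in KO and 3 higher, with a median log2 ratio of -0.34. Fos, an AP-1 subunit, stood at 323 CPM in KO and 804 CPM in WT (log2 -1.32, -1.64 to -1.01), and Jun, its partner, at 132 CPM in KO and 505 CPM in WT (log2 -1.93, -2.43 to -1.47). Egr1 stood at 109 CPM in KO and 427 CPM in WT (log2 -1.98, -2.52 to -1.46), and Atf3 at 103 CPM in KO and 287 CPM in WT (log2 -1.48, -2.06 to -0.94). UMIs of Fos were found in 35 of 51 KO and 102 of 116 WT cells, although the KO cells were the deeper ones, and with cells thinned to 1500 UMIs in 17 KO and 68 WT cells.

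Other members went the other way or stayed near. Junb, also an AP-1 subunit, stood at 1907 CPM in KO and 1658 CPM in WT (log2 0.20, 0.05 to 0.35), Jund at 1203 CPM in KO and 859 CPM in WT (log2 0.49), and Fosb at 487 CPM in KO and 509 CPM in WT (log2 -0.06, -0.36 to 0.23). Btg1, a growth inhibitor, was higher at 1215 CPM in KO and 754 CPM in WT (log2 0.69), as was the nuclear receptor gene Nr4a3 at 194 CPM in KO and 113 CPM in WT (log2 0.78). Hspa1a, a heat-shock gene, had 1 KO and 11 WT UMIs.

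Fos, Jun, Egr1 and Atf3 were lower in KO in CD4, CD8 and NK cells too, with log2 ratios between -0.39 and -2.25. For Fos the ratio was -0.39 in CD4, -0.59 in CD8 and -0.59 in NK cells against -1.32 in γδ cells. Over whole libraries the direction was the other one: Fos stood at 3347 CPM in KO and 2014 CPM in WT, and Jun at 2412 CPM in KO and 1494 CPM in WT. These genes also respond to tissue digestion, whose part in the result was not tested.

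**Figure D3:**
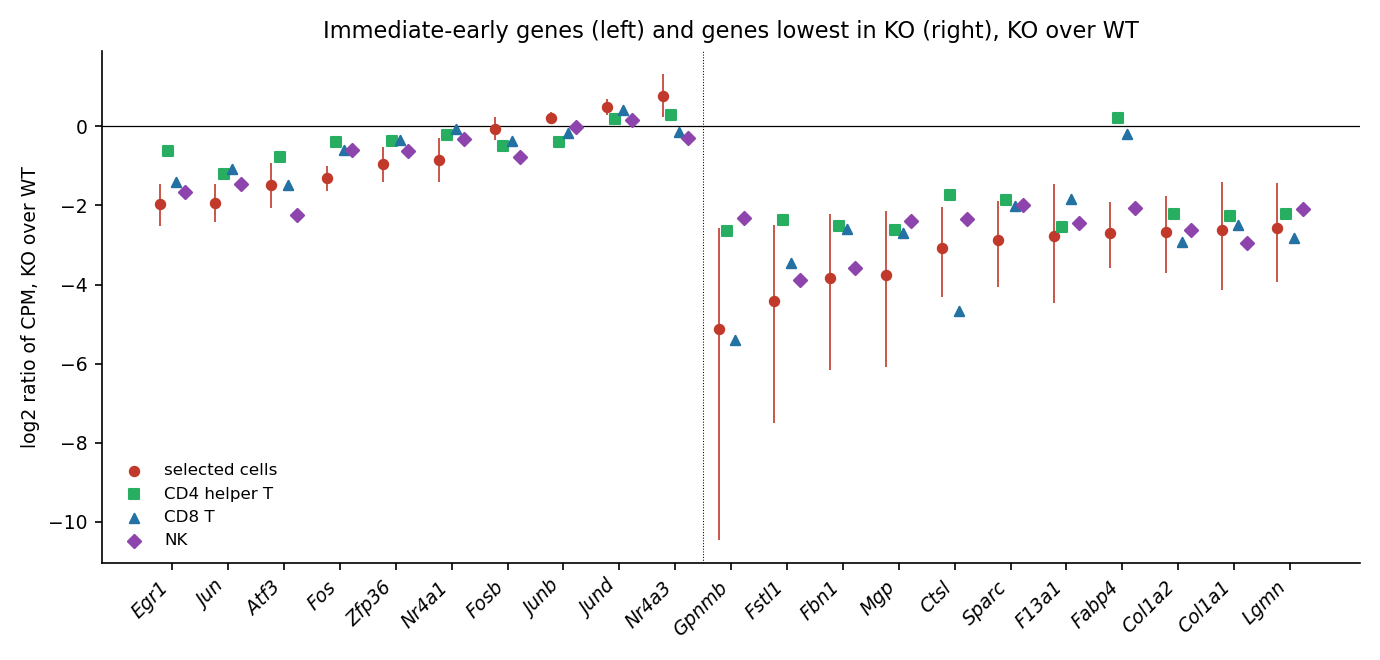
Log2 ratio of CPM, KO over WT (y axis), for 10 immediate-early genes and 11 of the genes lowest in KO γδ T cells (x axis), in γδ T cells (red circles, lines are exact 95% counting intervals), CD4 helper T (green squares), CD8 T (blue triangles) and NK cells (purple diamonds). Egr1, Jun, Atf3 and Fos lie below 0 in all 4 cell types, and of the lowest genes all but Fabp4 do as well.

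The genes lowest in KO were genes of other cells. Gpnmb, a gene of lipid-laden macrophages, had 1 KO UMI and stood at 103 CPM in WT (log2 -5.13, -10.5 to -2.58). Fstl1 (log2 -4.42), Fbn1 (-3.83), Mgp (-3.76), Sparc (-2.88), Col1a2 (-2.67) and Col1a1 (-2.63) are matrix genes of progenitors, of which Col1a1 was capped by the rule that chose the cells, F13a1 (-2.78) and Lgmn (-2.56) macrophage genes, and Ctsl (-3.07) a lysosomal protease gene of both. Fabp4, the fatty acid carrier of adipocytes and vessels, stood at 44.0 CPM in KO and 285 CPM in WT (log2 -2.69). No KO cell held more than 3 UMIs of any of these genes.

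Several marker lists moved in the same direction. Progenitor markers summed to 537 CPM in KO and 2337 CPM in WT γδ cells, and 10 of 10 at the floor were lower in KO. That is 2.42% of their sum over the KO library (22160 CPM) and 14.0% of that over the WT library (16640 CPM). Macrophage markers summed to 895 CPM in KO and 2125 CPM in WT, with 10 of 11 lower, or 8.66% of 10340 CPM in KO and 17.2% of 12330 CPM in WT. Haemoglobin and other red-cell genes summed to 4029 CPM in KO and 7362 CPM in WT γδ cells, against 3468 CPM in KO and 19450 CPM in WT over whole libraries. Endothelial markers summed to 93.9 CPM in KO and 335 CPM in WT, but Fabp4 alone made up 44.0 CPM of this in KO and 285 CPM in WT. Of the 2 endothelial genes at the floor, 1 was lower in KO and 1 was between the calls. B-cell markers were lower in KO for 4 of 4 genes (list sums of 120 CPM in KO and 329 CPM in WT). Mast and granulocyte markers summed to 47.0 CPM in KO and 67.0 CPM in WT, mesothelial markers to 5.87 CPM in KO and 12.6 CPM in WT, and sperm markers to 2.93 CPM in KO and 0 in WT. Markers of CD4, CD8 and regulatory T cells, several of them barred by the rule, summed to 211 CPM in KO and 193 CPM in WT. Il2ra, the only 1 of them at the floor, made up 194 CPM of this in KO and 172 CPM in WT. NK markers summed to 173 CPM in KO and 115 CPM in WT, with 4 of 6 higher, on the same side as the type-1 genes. The NK and type-1 lists share Gzma, Prf1 and Eomes, so they are not separate measures. The sums of stromal and macrophage transcripts thus differed between the libraries in T cells that should make little of them; the part of free RNA or doublets was not tested beyond the doublet score, which no γδ cell reached.

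The lipid handling list moved with those markers, with 10 of 14 lower in KO and 0 higher (median -0.95). Cd36, a fatty acid receptor, stood at 112 CPM in KO and 253 CPM in WT (log2 -1.18, -1.75 to -0.65), Plin2, a lipid droplet protein, at 82.2 CPM in KO and 241 CPM in WT (log2 -1.55), and Fabp5 at 44.0 CPM in KO and 170 CPM in WT (log2 -1.95). Lpl, for lipoprotein lipase, stood at 167 CPM in KO and 469 CPM in WT (log2 -1.49), with 36 of its 57 KO UMIs in 1 cell. In CD4, CD8 and NK cells the ratios were -1.52, -1.88 and -2.12 for Cd36 and -1.49, -1.49 and -2.70 for Lpl. Progenitor and macrophage marker sums differed in the same direction, and their part in the lipid genes was not tested. Of the enzymes of fatty acid oxidation, Acadm and Hadha were within the call, at log2 0.27 (-0.56 to 1.10) and 0.19 (-0.69 to 1.06), Acadl was at -0.66 and Cpt1a at -0.95.

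Most of the 12 genes highest in KO were histone and other genes of dividing cells, and their ratios depended on 2 KO cells. Hist1h2ap stood at 335 CPM in KO and 10.5 CPM in WT (log2 4.998), Stmn1 at 299 CPM in KO and 37.7 CPM in WT (log2 2.99), and Top2a, a DNA topoisomerase, at 235 CPM in KO and 31.4 CPM in WT (log2 2.90). All 12 of the proliferation genes at the floor were higher (median 2.19). Only 2 KO cells and 0 WT cells had 3 or more UMIs of Mki67 and Top2a together; 1 of them alone held 60 of the 80 Top2a UMIs, and neither was on the type-1 side. Without these 2 cells the ratios were -2.23 for Top2a, -1.90 for Stmn1, -1.19 for Hist1h1b and -0.056 for Pclaf, and the list median was -0.15. Positive ratios remained for Hist2h2ac (1.60), Hist1h4d (1.05), Hist1h2ap (0.94) and Hmgn2 (0.92), of which Hist1h2ap and Hmgn2 were then under 2-fold. Both cells were deep, with 20234 and 22659 UMIs, and had Tcrg-C1 and no Trdv4 UMI.

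Camk2d itself was sparse in γδ T cells, with 12 UMIs in 10 KO cells and 25 UMIs in 22 WT cells (35.2 CPM in KO, 52.3 CPM in WT; log2 -0.57, -1.70 to 0.47). Levels in CD8 T cells were 61.2 CPM in KO and 53.6 CPM in WT, in NK cells 44.7 CPM in KO and 32.5 CPM in WT, and in B cells 185 CPM in KO and 161 CPM in WT. The difference in γδ cells was within counting error. Because the deletion is myeloid, these cells do not check it. Of the calcium and CaM kinase list 3 of 20 were higher and 4 lower (median 0.30). Camk4, a calcium-dependent kinase gene, had 15 KO and 5 WT UMIs (log2 2.07, 0.54 to 3.89). Nfatc1, which calcineurin activates, stood at 88.0 CPM in KO and 56.5 CPM in WT (log2 0.64, -0.16 to 1.44).

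**Figure D4:**
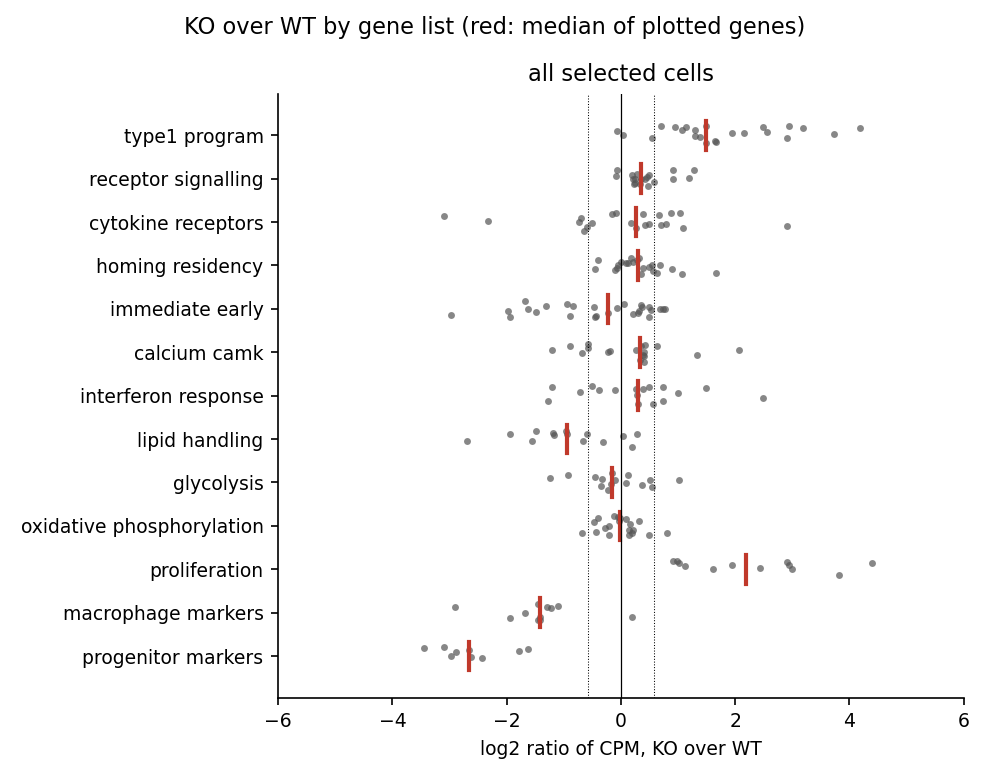
Log2 ratio of CPM, KO over WT (x axis), of genes at the floor in 13 gene lists (y axis), over all γδ T cells; dotted lines mark 1.5-fold and red bars the median of the genes plotted. A few genes, and those at 0 in a library, are left out. Type-1 genes lie to the right, progenitor and macrophage markers to the left, and the proliferation genes to the right, with a median of 2.19 that was -0.15 without 2 KO cells.

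Energy metabolism and survival genes differed little. Of the nuclear genes of oxidative phosphorylation 18 of 20 were between the calls (median -0.02), with Cox4i1 at 569 CPM in KO and 695 CPM in WT. Atp5a1 was the 1 lower (211 CPM in KO, 339 CPM in WT; log2 -0.68, -1.10 to -0.27), and Cycs the 1 higher (147 CPM in KO, 83.8 CPM in WT; log2 0.81). Of the glycolysis list 12 of 15 were between, with Gapdh at 596 CPM in KO and 544 CPM in WT (log2 0.13) and Tpi1 at 9 KO and 30 WT UMIs. Hif1a, the factor of low oxygen, was higher at 161 CPM in KO and 79.6 CPM in WT (log2 1.02, 0.40 to 1.66), and its log2 ratios in CD4, CD8 and NK cells were 1.11, 0.74 and 0.39. Of the apoptosis and survival list 9 of 12 were between, with Bcl2a1b at 384 CPM in KO and 369 CPM in WT. Bcl2l11, which encodes the death inducer BIM, was higher over all cells (112 CPM in KO, 39.8 CPM in WT; log2 1.49), and 30 of its 38 KO UMIs were in type-1 cells.

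Interferon response genes were mixed, with 6 of 18 higher and 3 lower (median 0.34). Irf1, a transcription factor that interferon induces, stood at 79.2 CPM in KO and 39.8 CPM in WT (log2 0.99, 0.09 to 1.92). Ifi206 had 12 KO and 3 WT UMIs, and Ifi203 stood at 205 CPM in KO and 172 CPM in WT. Ifi27l2a was lower, at 82.2 CPM in KO and 191 CPM in WT (log2 -1.21, -1.88 to -0.59). It was also lower in KO in NK cells, at 64.6 CPM in KO and 147 CPM in WT, while CD4 and CD8 T cells had ratios of 1.10 and 0.78.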

How the data were processed

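Both libraries are 10x Genomics 3′ single-cell RNA-seq. The authors deposited raw UMI counts for 32285 genes in 10631 KO and 15555 WT barcodes; per the submitters' processing notes, Cell Ranger 5.0.0, Seurat 4.1.1 and mm10 were used. All values are whole numbers. Counts were summed over the γδ T cells of each library and divided by their total (CPM). A 3′ UMI level is not scaled to length, so genes are not ranked against each other by level. Poisson (levels), Clopper-Pearson (shares) and conditional binomial (ratios) intervals are exact, at 95%. With 1 library per genotype no p-value was computed.

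The CD8 T, CD4 helper T, NK and B comparison cells were gated from the same filtered barcodes with the same C1q and collagen limits. The CD8 and CD4 gates allowed no Trdc UMI, the CD4 gate no Foxp3 UMI, and the NK and B gates no CD3 UMI. Progenitors were gated from the same barcodes by high Col1a1, Col3a1 and Dcn counts, with no Ptprc UMI. Scrublet (scanpy 1.11.5) set no working threshold in WT, where it called 0 of 13085 barcodes against 301 in KO, so a fixed score of 0.25 was used as an alternative and no barcode was removed in the results. Thinning drew 1500 UMIs per cell. TMM used edgeR 4.0.16 (R 4.3.3). The gate and the ratios were tested on simulated data.

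Genes named across all genes were the 12 highest and 12 lowest with at least 100 CPM and 30 UMIs in the higher library, and the 15 highest over other lymphocytes with at least 100 CPM in both libraries. Ribosomal, mitochondrial, haemoglobin, immunoglobulin and Gm or Rik genes were left out. Other genes come from 29 lists (446 genes) and were picked from them after their values were seen. The members and lists were chosen with earlier results of these data known. V-segment sequences are from GENCODE (GRCm38). Some genes, a marker set and the results that need them are not reported here.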

Additional observations from a re-analysis of the deposited data

How the results depend on the processing

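No paired analysis was possible because each genotype has 1 library. Of 850 values under alternative settings, 756 stayed near the main value, 85 moved and 9 changed sign. The share of filtered barcodes, -0.48 as log2 KO over WT, was -1.22 with no Trbc1 or Trbc2 UMI allowed, -1.02 with at least 3000 UMIs, -1.05 with barcodes thinned to 3000 UMIs and 3.03 with no C1q or collagen UMI. The share of CD3-positive barcodes, -1.31, was -2.05 with no Trbc UMI and 2.20 with no C1q or collagen UMI. These strict gates left 5 KO and 19 WT cells without Trbc UMIs, and 10 KO and 2 WT cells without C1q and collagen UMIs, so values under both gates, the gene counts below included, rest on few cells.

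The counts of 66 higher and 93 lower genes were 144 and 178 with equal weight to 3 groups of cells set by their marker UMIs, 1 of which held 1 KO cell. They were 30 and 40 at a mean of 100 CPM, 220 and 243 at 1.5-fold, 24 and 39 at 3-fold and 13 and 23 with no Trbc UMI, and 0 genes were lower with no C1q or collagen UMI, where 171 were tested. Equal weight also turned Lpl to 1.80 and the lipid list median to 0.11. Chosen after seeing the data, leaving out the 2 dividing KO cells turned Pclaf to -0.056, Stmn1 to -1.90, Top2a to -2.23, Hist1h1b to -1.19 and the proliferation list median to -0.15. Thinning with 1 Trdc UMI, barring Trac and leaving out the cell with most UMIs of a gene were also added after seeing the data. TMM shifted all ratios by -0.05 (log2). The shallower WT cells limit detection of sparse genes such as Il17a.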
